A study of Homo sapiens with 8 samples.

Results

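Histone variant genes that are expressed outside the replication-dependent histone clusters were examined in LP-1 cells, a human multiple myeloma line. The 9 genes were taken by symbol from the deposited table of 63129 genes, namely the linker histone gene H1FX, the H2A variant genes H2AFJ, H2AFV, H2AFX, H2AFY and H2AFZ, the H3.3 genes H3F3A and H3F3B, and CENPA. All 9 had a value in every library, and all 9 were among the 14732 genes tested, those with a mean of at least 1 RPKM (read density per kilobase of gene, scaled to library size). RNA-seq was performed on 8 libraries after 6 hr, taken here as 2 experiments from the 2 naming series in the titles. In the first, 2 libraries of cells treated with 2.5 µM SGC-CBP30, an inhibitor of the CBP and EP300 bromodomains, stood beside 2 of cells treated with DMSO, the solvent. In the second, 2 libraries with 250 nM CPI203, an inhibitor of the BET family bromodomains, had 2 DMSO libraries of their own. All groups are of 1 cell line, with no genetic change named in the labels, at 1 dose and 1 time per compound, and the study calls the replicates biological.

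Nucleosomes wrap DNA around histones H2A, H2B, H3 and H4, and a linker histone H1 binds where DNA enters and leaves. The bulk of these proteins comes from clustered genes that are transcribed in S phase, lack introns and give mRNAs that end in a stem-loop instead of a poly(A) tail. Variant histones are made throughout the cell cycle from single genes, mostly as polyadenylated mRNAs. Chaperones and remodelling complexes place them independently of replication, H3.3 and H2A.Z at active promoters and enhancers and CENP-A at centromeres. Bromodomains, which CBP, EP300 and the BET proteins carry, bind acetylated lysines, many of them on these same histones.

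The gene models of the 9 members differ. In GENCODE release 29, H1FX, H2AFJ and H2AFX have a single coding exon, as clustered histone genes do, and the coding transcripts of the other 6 have 3 to 9 exons. The letters of a histone stem-loop (a stem GGNNCT, a loop TTTN and a stem AGNNCC in direct succession, 16 bases, gene strand) were found in a coding transcript of H2AFX and in no coding transcript of the other members. They occur in 0.264% of the 19684 coding genes of that release. Of 24 clustered histone genes with a matched transcript 14 hold them, so a lack of these letters does not show a lack of a stem-loop. H2AFX is known to give both a stem-loop mRNA and a polyadenylated one, and the match starts at base 555 of its 1614-base transcript, with 1044 bases after it. It is shown beside HIST1H2AC, which had the highest mean RPKM among those of the 24 clustered histone genes that hold these letters. The HIST1H2AC match likewise lies inside a long transcript, at base 525 of 1654, with 1114 bases after it. Capitals mark the match.
H2AFX: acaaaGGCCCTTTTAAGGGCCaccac
HIST1H2AC: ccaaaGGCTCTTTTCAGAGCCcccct

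Promoters are shown for H1FX, H2AFX, H3F3B and CENPA, which rose together with CPI203 by at least 1.5-fold. RefSeq (GRCh38.p14) has an entry for all 9 members. Each line gives the 250 bases before the annotated start, on the gene strand. Capitals mark a CCAAT box (CCAAT, either strand, in 32% of 35116 RefSeq promoters), a TATA box (TATAAA, gene strand, 6.8%) and a CHR element (TTTGAA, either strand, 13.3%), none of which overlap here. The positions are chr3:129316287-129316536 (minus strand) for H1FX, chr11:119095466-119095715 (minus) for H2AFX, chr17:75779780-75780029 (minus) for H3F3B and chr2:26785806-26786055 (plus) for CENPA.
H1FX: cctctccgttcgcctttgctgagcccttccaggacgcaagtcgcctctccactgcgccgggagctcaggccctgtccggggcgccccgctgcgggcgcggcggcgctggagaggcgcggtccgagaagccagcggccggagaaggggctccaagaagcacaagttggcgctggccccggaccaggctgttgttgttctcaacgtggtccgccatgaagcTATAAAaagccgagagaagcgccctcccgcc
H2AFX: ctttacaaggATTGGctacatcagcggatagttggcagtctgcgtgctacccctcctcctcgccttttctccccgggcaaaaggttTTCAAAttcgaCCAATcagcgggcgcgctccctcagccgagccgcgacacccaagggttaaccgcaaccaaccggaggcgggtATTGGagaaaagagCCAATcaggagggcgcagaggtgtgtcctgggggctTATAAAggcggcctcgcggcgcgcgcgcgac
H3F3B: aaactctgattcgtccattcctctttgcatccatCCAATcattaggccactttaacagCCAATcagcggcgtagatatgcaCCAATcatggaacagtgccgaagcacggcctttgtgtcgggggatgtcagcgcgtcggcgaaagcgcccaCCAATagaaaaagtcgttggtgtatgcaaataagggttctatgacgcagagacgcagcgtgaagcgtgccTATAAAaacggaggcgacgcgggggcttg
CENPA: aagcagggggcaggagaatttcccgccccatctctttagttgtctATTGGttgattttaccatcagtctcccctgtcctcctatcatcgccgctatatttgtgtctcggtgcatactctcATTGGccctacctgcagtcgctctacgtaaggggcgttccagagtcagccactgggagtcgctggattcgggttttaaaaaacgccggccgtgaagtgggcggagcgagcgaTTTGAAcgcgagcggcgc
H2AFX and H3F3B each hold 4 CCAAT boxes and a TATA box, at -31 in H2AFX and at -29 in H3F3B, counted to the first base of the box from the annotated start. CENPA holds 2 CCAAT boxes and no TATA box, and H1FX holds a TATA box at -31 and no CCAAT box. A CHR element, known from genes of the late cell cycle, lies at -164 in H2AFX and at -18 in CENPA. An octamer (ATTTGCAT, either strand, in 1.63% of RefSeq promoters) was also searched for and lies at -76 in H3F3B, where it is not marked. Among the members that did not reach 1.5-fold, H2AFV holds 4 CCAAT boxes, H2AFZ and H2AFJ hold 3 each, and H2AFZ also holds a TATA box.

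The libraries had an estimated depth of 26100000 to 50100000 reads and a total of 484019 to 501281 RPKM. Depth was 50100000 and 46900000 reads with SGC-CBP30 against 34400000 and 34100000 with its DMSO. In the CPI203 experiment it overlapped, at 26100000 and 29700000 with the compound and 28900000 and 26600000 with DMSO. The part of depth in the SGC-CBP30 results was not tested. All 9 plasma cell markers that were examined lay between 19.5 and 531.3 RPKM in every library, and the markers of B cells, T cells, myeloid cells and epithelial or stromal cells were at most 0.499 RPKM. Whether the libraries kept strand and how reads shared by near-identical gene copies were assigned are not given in the sources used here, which bears on the H3.3 and H2A.Z genes below. RPKM is a share of each library, so a change in total RNA per cell does not show, and in bulk RNA a change in the cells' composition and a change within each cell cannot be told apart.

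In the DMSO libraries the members ranged from moderate to very high expression. H2AFZ was the most abundant, at a mean of 323.3 RPKM over the 4 DMSO libraries (range 297 to 346), above 98.91% of the genes tested. H1FX followed at 224.6 RPKM (198 to 246) and H3F3B at 184.9 RPKM (157 to 214), and the ranges of these genes overlapped. The order continued with H2AFY (124 RPKM), H2AFV (80.2 RPKM), H2AFX (65.7 RPKM), H3F3A (39.5 RPKM), H2AFJ (31.0 RPKM) and CENPA (23.8 RPKM), with no overlap between the ranges of neighbours. CENPA, the lowest, was still above 66.85% of the genes tested. The DMSO groups of the 2 experiments were not alike for every gene, since H3F3B had 209 and 214 RPKM in one and 157 and 160 RPKM in the other, and H2AFX had 73.6 and 73.7 RPKM against 54.4 and 61.0 RPKM.

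**Figure D1:**
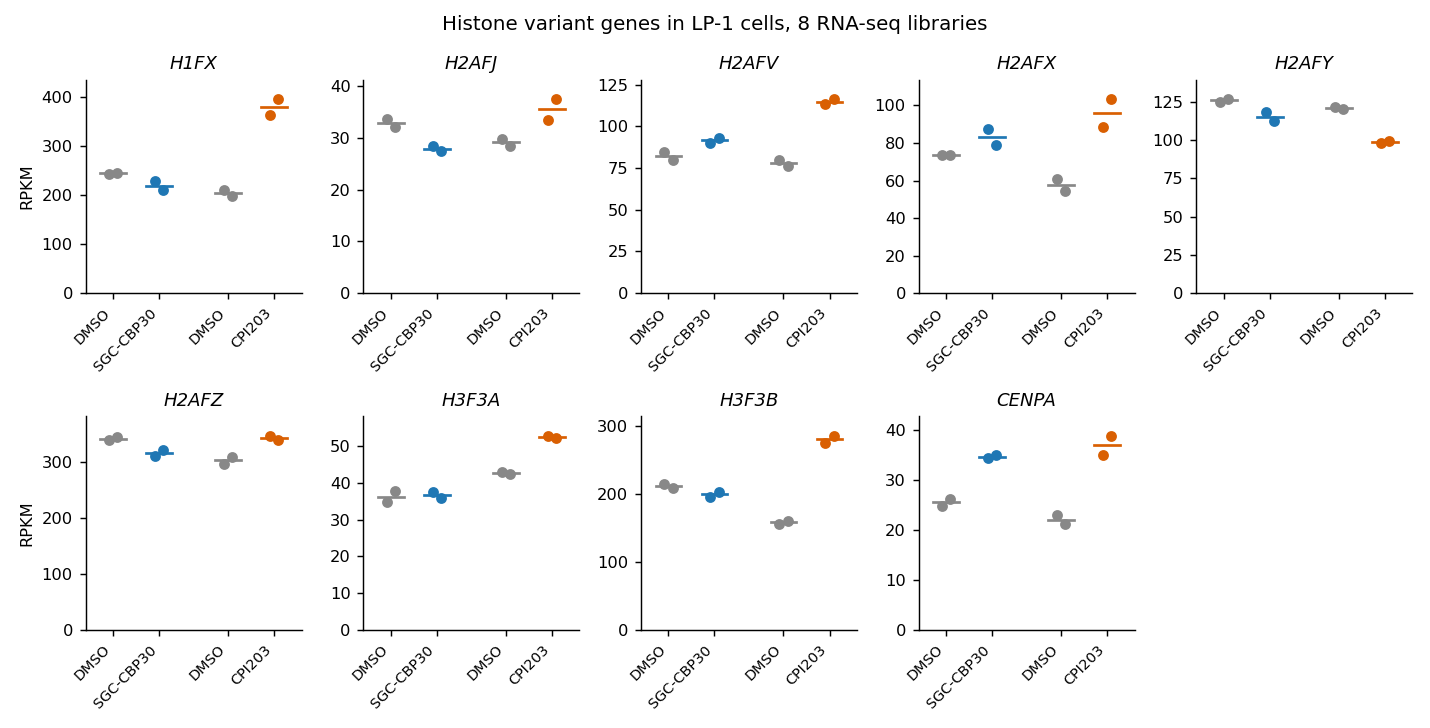
RPKM of the 9 histone variant genes in the 8 libraries (points, 1 per library, with a line at each group's mean of 2), with the SGC-CBP30 experiment to the left and the CPI203 experiment to the right of each panel and a separate vertical axis from 0 for each gene. With CPI203 both libraries lie above both of their DMSO libraries for 8 genes and below them for H2AFY, while with SGC-CBP30 CENPA stands clear of DMSO and the other genes stay close to it.

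With CPI203 all 9 members changed (adjusted p under 0.05, limma), 8 of them upward, against 64.2% of all genes that changed and 31.1% that rose. H2AFY, the macroH2A1 gene, was the 1 member that fell. The increase reached 1.5-fold for 4 members, H1FX, H3F3B, CENPA and H2AFX, where 27.8% of all genes did in either direction and 13.4% upward, and no member fell by as much. Both CPI203 libraries were above both DMSO libraries for 8 members and below them for 1, as they were for 39.2% and 41.7% of all genes. The median log2 fold change was 0.55 for the members and -0.01 for all genes. All 9 calls held when any 1 library was left out, and 7 of 9 held when all 4 DMSO libraries served as controls, without H2AFJ and H2AFZ. The 1.5-fold line was close for H2AFX and H2AFV, so that 3 members reached it with all 4 DMSO libraries (H2AFX 0.55), 5 with quantile normalization (H2AFV 0.61) and 5 without replicate 1 of DMSO (H2AFV 0.59).

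With SGC-CBP30 the response was smaller and split. H2AFV and CENPA rose and H1FX, H2AFJ, H2AFY and H2AFZ fell, 6 of 9 members in all, beside 40.4% of all genes (25.6% higher, 14.8% lower). No member reached 1.5-fold, where 7.26% of all genes did in either direction. Both SGC-CBP30 libraries were above DMSO for 3 members and below for 5, against 45.9% and 27.2% of all genes, and those of H3F3A overlapped with DMSO. The median log2 fold change was -0.08 for the members and 0.07 for all genes. The call of CENPA held under each alternative, but those of the small changes did not. With the replicate number as a block H1FX (adjusted p = 0.059), H2AFY (0.0581) and H2AFZ (0.0635) did not pass. The count was 2 without replicate 2 of DMSO and 2 without replicate 2 of SGC-CBP30, and the share of all 1.5-fold calls that were increases, 47.8%, was 32.5% with libraries scaled to one median and 32.4% with quantile normalization.

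**Figure D2:**
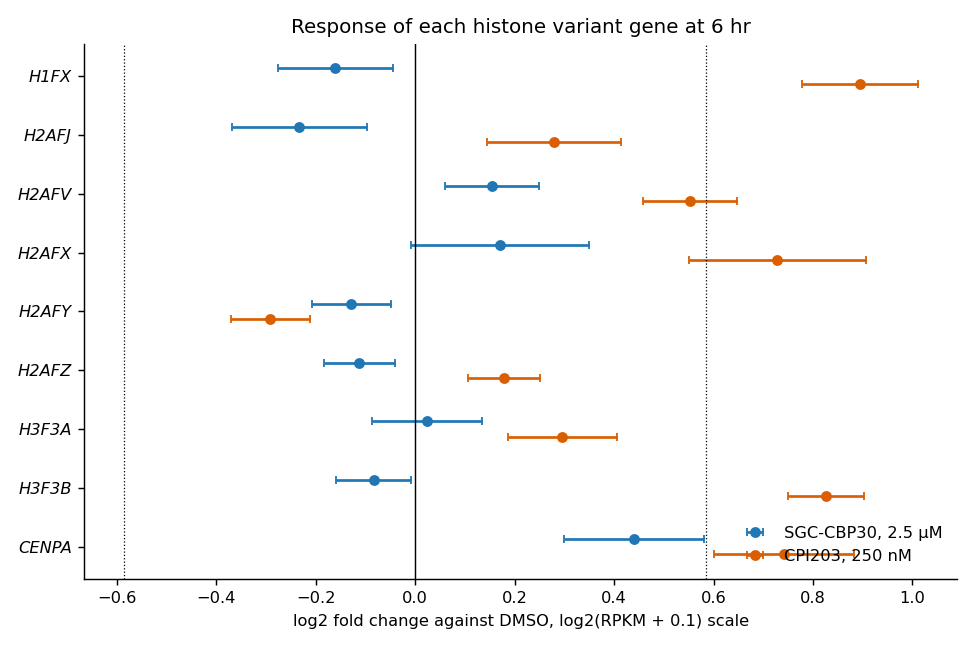
Log2 fold change of each histone variant gene against the DMSO of its own experiment (horizontal axis, log2(RPKM + 0.1) scale) with SGC-CBP30 (blue) and CPI203 (orange); points are limma estimates from 2 against 2 libraries, bars their 95% confidence intervals, and dotted lines mark 1.5-fold. The CPI203 estimates run from -0.29 for H2AFY to 0.89 for H1FX, and those with SGC-CBP30 from -0.23 for H2AFJ to 0.44 for CENPA.

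H1FX (ENSG00000184897, hg19 chr3:129033614-129035120) encodes H1X, a linker histone, and had the highest log2 fold change of the members with CPI203. Its DMSO libraries of the CPI203 experiment were at 211 and 198 RPKM, and those with CPI203 at 365 and 396 RPKM. With SGC-CBP30 it went the other way, from 243.5 and 245.6 RPKM to 228 and 210 RPKM. It thus rose by a log2 fold change of 0.89 with CPI203 (SE 0.05, adjusted p = 4.1e-07) and fell by 0.16 with SGC-CBP30 (SE 0.05, adjusted p = 0.0335). H1FX-AS1, which overlaps it, had 8.73 to 13.8 RPKM in the SGC-CBP30 experiment and 6.86 to 10.3 RPKM in the CPI203 experiment, and fell with both compounds (log2 fold changes of -0.49 and -0.49, adjusted p = 0.0046 and 0.00184). Its direction with CPI203 was thus opposite to that of H1FX.

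H2A.Z is placed at promoters and enhancers by the SRCAP and p400 complexes and comes from a pair of genes, H2AFZ (H2A.Z.1) and H2AFV (H2A.Z.2). H2AFV (ENSG00000105968, hg19 chr7:44866389-44887682) was at 84.5 and 79.9 RPKM with DMSO and 89.8 and 93.2 RPKM with SGC-CBP30, and at 80.0 and 76.3 RPKM against 113 and 116 RPKM with CPI203. It rose with both, by a log2 fold change of 0.15 (SE 0.04, adjusted p = 0.0168) and 0.55 (SE 0.04, adjusted p = 2.38e-06), and the first of these was 0.08 (adjusted p = 0.186) once libraries were scaled to one median. H2AFZ (ENSG00000164032, hg19 chr4:100869242-100871545) moved less. It went from 340 and 346 RPKM to 312 and 322 RPKM with SGC-CBP30, a log2 fold change of -0.11 (SE 0.03, adjusted p = 0.0203), and from 297 and 310 RPKM to 348 and 340 RPKM with CPI203, one of 0.18 (SE 0.03, adjusted p = 0.000781). The levels of this gene with CPI203 thus lay where they were in the DMSO libraries of the other experiment. The ratio of H2AFZ to H2AFV in RPKM was lower with either compound, at 4.02 and 4.33 with DMSO against 3.48 and 3.45 with SGC-CBP30, and at 3.71 and 4.07 against 3.07 and 2.92 with CPI203.

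H2AFX (ENSG00000188486, hg19 chr11:118964563-118966177) encodes H2A.X, whose phosphorylated form marks DNA breaks, and is the member with the stem-loop shown above. It was at 73.6 and 73.7 RPKM with DMSO and 87.3 and 78.7 RPKM with SGC-CBP30, a log2 fold change of 0.17 (95% interval -0.01 to 0.35, adjusted p = 0.116). With CPI203 it rose from 61.0 and 54.4 RPKM to 88.4 and 103 RPKM, by a log2 fold change of 0.73 (SE 0.08, adjusted p = 2.64e-05). Neither pair of treated libraries overlapped with DMSO, but the treated replicates of this gene spread more widely than those of most members.

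H2AFJ (ENSG00000246705, hg19 chr12:14927269-14930936), the gene of H2A.J, a variant known to build up in senescent cells, had opposite responses. It fell from 33.6 and 32.1 RPKM to 28.4 and 27.4 RPKM with SGC-CBP30 (log2 fold change -0.23, SE 0.06, adjusted p = 0.0131). With CPI203 it rose from 29.9 and 28.5 RPKM to 33.5 and 37.5 RPKM (log2 fold change 0.28, SE 0.06, adjusted p = 0.00246). H2AFY (ENSG00000113648, hg19 chr5:134669589-134735604) encodes macroH2A1, an H2A with a large additional domain that is enriched on repressed chromatin. It was at 125 and 127 RPKM with DMSO against 118 and 112 RPKM with SGC-CBP30, and at 122 and 120 RPKM against 98.0 and 99.7 RPKM with CPI203. Both treated pairs lay below their DMSO pair, with log2 fold changes of -0.13 (SE 0.04, adjusted p = 0.0169) and -0.29 (SE 0.04, adjusted p = 5.26e-05). It was the member that fell with both.

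H3F3A and H3F3B encode the same protein, H3.3, from different genes. H3F3B (ENSG00000132475, hg19 chr17:73772514-73781974) was at 214 and 209 RPKM with DMSO and 196 and 203 RPKM with SGC-CBP30, where the log2 fold change was -0.08 (95% interval -0.16 to -0.01, adjusted p = 0.0768) and, with libraries scaled to one median, -0.16 (adjusted p = 0.00442). With CPI203 it rose from 157 and 160 RPKM to 275.5 and 286 RPKM (log2 fold change 0.83, SE 0.03, adjusted p = 5.35e-08), the smallest p among the members. H3F3A (ENSG00000163041, hg19 chr1:226249551-226259702) was at 34.8 and 37.7 RPKM with DMSO and 37.6 and 36.0 RPKM with SGC-CBP30, which overlapped (log2 fold change 0.02, 95% interval -0.09 to 0.13, adjusted p = 0.732). It rose from 43.1 and 42.4 RPKM to 52.8 and 52.2 RPKM with CPI203 (log2 fold change 0.30, SE 0.05, adjusted p = 0.000451). The ratio of H3F3B to H3F3A, with the copies described below left out, was 3.64 and 3.77 with DMSO and 5.22 and 5.48 with CPI203. In the SGC-CBP30 experiment it was 6.17 and 5.53 with DMSO and 5.21 and 5.65 with the compound, so both CPI203 ratios were below both DMSO ratios of the other experiment. UNK, which overlaps H3F3B, moved against it, from 21.0 and 21.3 RPKM to 10.5 and 9.92 RPKM with CPI203 (log2 fold change -1.05, adjusted p = 6.42e-07).

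The H3.3 and H2A.Z genes have processed copies elsewhere in the genome, and the table gives values to 11 of these, 5 of them with a mean of at least 1 RPKM. H3F3A held just 19.6% of the RPKM summed over the gene and its copies in the DMSO libraries, H3F3B held 86.1% and H2AFZ 84.9%, so the split between H3F3A and its copies is uncertain. H3F3AP4 had 125 and 127 RPKM with DMSO and 149 and 146 RPKM with CPI203, more than H3F3A itself in every library. H3F3AP6 had 37.3 and 36.9 RPKM against 45.3 and 43.6 RPKM. Both rose with CPI203 (log2 fold changes 0.22 and 0.26, adjusted p = 0.000163 and 0.00082) and fell with SGC-CBP30 (-0.12 and -0.13, adjusted p = 0.0171 and 0.0484). H3F3C, a copy with a reading frame of its own that resembles H3F3B, had 21.8 and 22.6 RPKM with DMSO and 39.9 and 39.4 RPKM with CPI203, and its log2 fold change of 0.83 (adjusted p = 2.65e-07) equalled that of H3F3B, while with SGC-CBP30 it was -0.02 (adjusted p = 0.754). H3F3BP1 fell with SGC-CBP30 (-0.41, adjusted p = 0.00505) and had 7.88 and 8.61 RPKM with DMSO against 9.31 and 8.94 RPKM with CPI203 (adjusted p = 0.168). H2AFZP3 followed H2AFZ, falling with SGC-CBP30 (-0.15, adjusted p = 0.0219) and rising with CPI203 (0.12, adjusted p = 0.0367).

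Adding the copies to their gene left the CPI203 results of all 3 genes as increases past the threshold. With SGC-CBP30 the sum of H3F3A and its copies was 193 and 202 RPKM with DMSO and 186 and 185 RPKM with the compound. Its log2 fold change was -0.09 (adjusted p = 0.0421), where that of H3F3A alone was 0.02. In the CPI203 experiment H3F3A with its copies averaged 206.3 RPKM with DMSO and 244.5 RPKM with the compound. H3F3B with its copies averaged 188.8 and 329.6 RPKM. The size of the H3F3B to H3F3A ratios above thus depends on how the copies are counted.

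**Figure D3:**
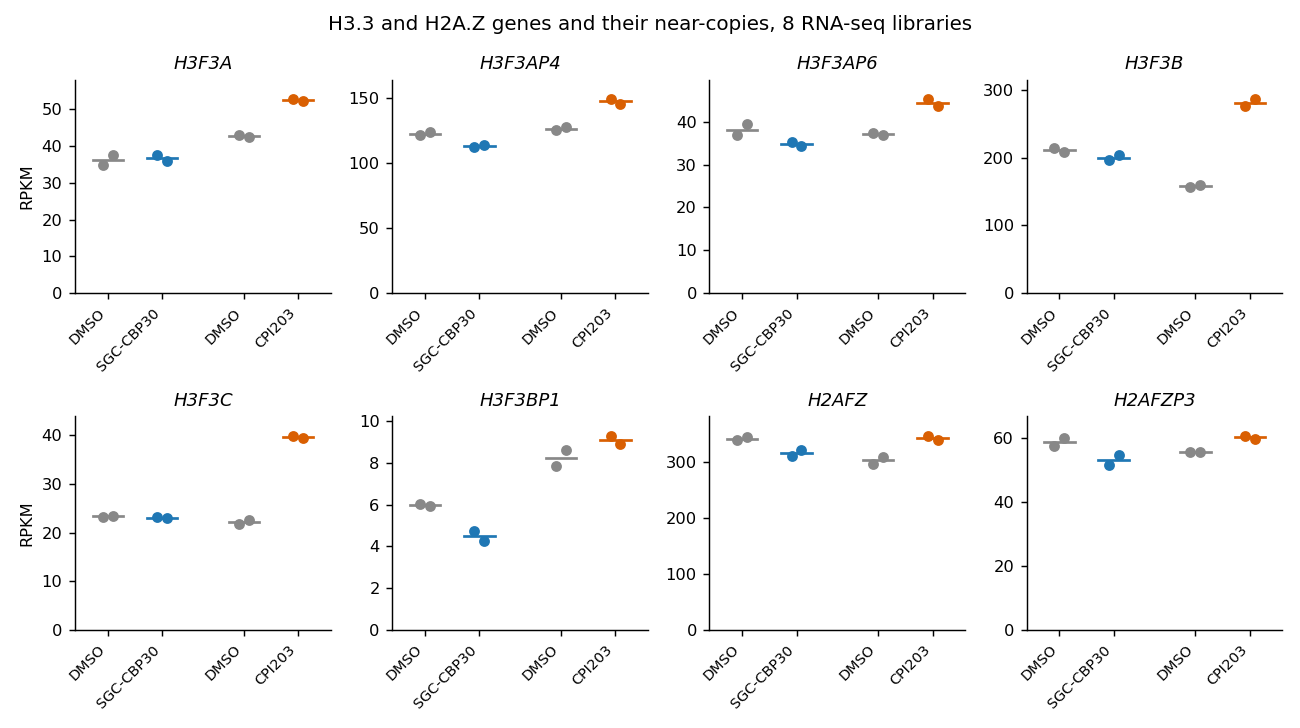
RPKM of H3F3A, H3F3B and H2AFZ and of the 5 near-copies with a mean of at least 1 RPKM in the 8 libraries (points, with a line at each group's mean of 2), each panel on its own axis from 0. H3F3C follows H3F3B with CPI203, from about 22 to about 40 RPKM, and H3F3AP4 lies above H3F3A in every library.

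CENPA (ENSG00000115163, hg19 chr2:26987156-27023935) encodes the H3 variant that defines centromeres, and its mRNA is known to peak in G2 phase. It rose from 24.9 and 26.1 RPKM to 34.3 and 34.9 RPKM with SGC-CBP30 (log2 fold change 0.44, SE 0.06, adjusted p = 0.000652). With CPI203 it rose from 22.95 and 21.1 RPKM to 35.0 and 38.8 RPKM (log2 fold change 0.74, SE 0.06, adjusted p = 4.63e-06). All 4 treated libraries were above all 4 DMSO libraries. SLC35F6, which overlaps CENPA, rose with SGC-CBP30 by a log2 fold change of 0.16 (adjusted p = 0.0482) and fell with CPI203 (-0.17, adjusted p = 0.026), each far smaller than the change of CENPA.

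The compounds were then compared directly, by testing the log2 fold change with SGC-CBP30 minus that with CPI203, each at its own dose and against its own DMSO. All 9 members differed (adjusted p under 0.05), beside 50.3% of all genes. It was negative for 8 of them, where 21% of all genes passed with a negative difference, and positive for H2AFY. It was greatest for H1FX (-1.05, 95% interval -1.22 to -0.89, adjusted p = 3.81e-06) and H3F3B (-0.91, -1.02 to -0.80, adjusted p = 9.28e-07). H2AFX followed at -0.56 (adjusted p = 0.00251), H2AFJ at -0.51 (adjusted p = 0.000813) and H2AFV at -0.40 (adjusted p = 0.000438). CENPA at -0.30 (adjusted p = 0.0182), H2AFZ at -0.29 (adjusted p = 0.000542), H3F3A at -0.27 (adjusted p = 0.00884) and H2AFY at 0.16 (adjusted p = 0.0209) had the smallest differences. With 1 library left out the count was 7 to 9 of 9, and the calls lost were those of H2AFY and CENPA. Each compound was used in 1 experiment, so a difference between the experiments in how the cells responded cannot be told apart from one between the compounds.

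Summed over the 9 members, the variant genes gave 1174 and 1176 RPKM with DMSO and 1132 and 1118 RPKM with SGC-CBP30. In the CPI203 experiment the sums were 1024 and 1011 RPKM with DMSO and 1409 and 1470 RPKM with the compound. The clustered genes, 41 with a symbol starting in HIST that were tested, started lower and reached higher sums with CPI203. GENCODE lists 4 of them as pseudogenes. Their sum was 568 and 566 RPKM with DMSO and 696.5 and 716 RPKM with SGC-CBP30, and 533 and 514 RPKM against 2518 and 2513 RPKM with CPI203. The members' sum was thus 1.92 and 1.97 times the clustered genes' sum with DMSO and 0.559 and 0.585 times with CPI203. The study calls the method mRNA sequencing and does not state whether poly(A) RNA was selected. Such selection would count clustered mRNAs that end without a poly(A) tail only in part. The ratio thus compares RPKM and not total histone mRNA, and the part of the tail in the CPI203 change was not tested. Of the 41 clustered genes, 9 averaged under 1 RPKM in the DMSO libraries and passed the filter only through treated ones. With CPI203 40 of the 41 rose by 1.5-fold or more (median log2 fold change 2.63), and the exception was the pseudogene HIST1H3PS1. With SGC-CBP30 11 of 41 did (median 0.24), where 13.4% and 3.47% of all genes did with the respective compound. Among the other 32 the counts were 31 and 7, with medians of 2.51 and 0.23, and without the pseudogenes they were 37 and 11 of 37. H1FX, the member with the highest log2 fold change with CPI203, was at 0.89, under that median. Some clustered genes formed pairs with nearly equal values that were counted separately. Among them were HIST2H3A and HIST2H3C (means of 21.1 RPKM each with CPI203) and HIST2H4A and HIST2H4B (178 RPKM each). How reads shared by gene copies were assigned is not given, so counts and sums may hold the same transcripts more than once.

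Of 14 other variant genes, most of them known from the testis, 8 were above 0 RPKM somewhere and H3F3C alone reached a mean of 1 RPKM.

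Genes that deposit or exchange the variants were examined next, 34 genes in all. With CPI203 12 rose and 13 fell, beside 31.1% and 33.1% of all genes, and with SGC-CBP30 11 rose and 4 fell, beside 25.6% and 14.8%. The medians were -0.08 and 0.05, and the shares of the whole list were near those of all genes. The H2A.Z exchange genes were lower with CPI203, where 7 of 11 fell and none rose (median -0.24), beside 33.1% of all genes that fell. SRCAP (0.05, adjusted p = 0.599) and EP400 (-0.08, adjusted p = 0.496), of the complexes that place H2A.Z, did not pass. Other exchange genes did and fell, namely ACTR6 (-0.44, adjusted p = 0.00026), VPS72 (-0.40, adjusted p = 1.26e-05), RUVBL2 (-0.24, adjusted p = 0.000937) and DMAP1 (-0.13, adjusted p = 0.0297). INO80, the ATPase of a complex that acts on H2A.Z nucleosomes, fell from 12.3 and 12.4 RPKM to 7.58 and 7.29 RPKM (log2 fold change -0.73, adjusted p = 1.16e-05). ANP32E, a chaperone that removes H2A.Z, fell from 122 and 127 RPKM to 81.3 and 80.1 RPKM (-0.63, adjusted p = 2.74e-07). RUVBL1, an ATPase shared by several of these complexes, fell from 151 and 149 RPKM to 101 and 100.4 RPKM (-0.57, adjusted p = 3.55e-07). The H2A.Z genes themselves, H2AFZ and H2AFV, had risen in the same libraries. With SGC-CBP30 3 exchange genes rose and 3 fell, among them YEATS4 (0.52, adjusted p = 4.42e-05) and ACTR6 (0.39, adjusted p = 0.00155) upward and INO80 (-0.21, adjusted p = 0.04) and RUVBL2 (-0.18, adjusted p = 0.0104) downward.

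Of the 6 CENP-A deposition genes 4 rose with each compound, beside 25.6% of all genes with SGC-CBP30 and 31.1% with CPI203, with medians of 0.21 (SGC-CBP30) and 0.43 (CPI203). CENPC, which binds the CENP-A nucleosome, had the highest increase of the whole list. It went from 3.74 and 3.51 RPKM to 5.27 and 5.28 RPKM with SGC-CBP30 (log2 fold change 0.53, adjusted p = 0.00118) and from 3.77 and 3.79 RPKM to 9.60 and 9.33 RPKM with CPI203 (1.30, adjusted p = 8.07e-07). Of the 7 H3.3 deposition genes 2 rose and 2 fell with CPI203, beside 31.1% and 33.1% of all genes. With SGC-CBP30 2 rose and 1 fell, beside 25.6% and 14.8%. HIRA, the H3.3 chaperone of active genes, fell with SGC-CBP30 (-0.16, adjusted p = 0.0281) and further with CPI203 (-0.39, adjusted p = 8.01e-05). DAXX also fell with CPI203 (-0.28, adjusted p = 0.000248), while UBN1 (0.58, adjusted p = 6.3e-06) and UBN2 (0.58, adjusted p = 0.00228) rose. The genes that rose with SGC-CBP30 were ATRX (0.33, adjusted p = 0.00726) and DEK (0.23, adjusted p = 0.0204). H3F3B and H3F3A did not pass the test with SGC-CBP30 and rose with CPI203. Among 10 general histone chaperones 6 rose and 3 fell with CPI203, beside 31.1% and 33.1% of all genes, with ASF1B (log2 fold change 0.68, adjusted p = 3.95e-06) and ASF1A (0.66, adjusted p = 1.96e-07), the H3-H4 chaperones, highest.

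Of 6 regulators of the replication-dependent genes 3 rose and 3 fell with CPI203, where 64.2% of all genes changed. LSM11 (-1.05, adjusted p = 6.31e-06), LSM10 (-0.78, adjusted p = 6.13e-07) and ZNF473 (-0.74, adjusted p = 6.56e-05) fell. CASP8AP2 (0.60, adjusted p = 0.00156), NPAT (0.42, adjusted p = 0.0028) and SLBP (0.42, adjusted p = 2.9e-06) rose. SLBP, which binds the stem-loop, also rose with SGC-CBP30 (0.22, adjusted p = 0.000883), as the 1 of 6 that passed, beside 40.4% of all genes.

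Genes of the cell cycle were examined beside CENPA and the clustered histones. Of 15 S phase genes 7 rose and 2 fell with CPI203 and 8 rose and 1 fell with SGC-CBP30, with medians of 0.05 and 0.11 that lay near those of all genes (-0.01 and 0.07). Of all genes 31.1% rose and 33.1% fell with CPI203 and 25.6% and 14.8% with SGC-CBP30. RRM2 (0.86, adjusted p = 5.64e-08) and CCNE2 (0.75, adjusted p = 5.69e-05) had the highest increases with CPI203, and CCNE2 (0.55, adjusted p = 0.00147) with SGC-CBP30. Of 15 G2 and M phase genes 12 rose and 2 fell with CPI203 and 11 rose and 1 fell with SGC-CBP30, with medians of 0.33 and 0.29. CENPE, a kinetochore motor, rose most with both (1.12, adjusted p = 9.59e-07, and 0.51, adjusted p = 0.000788). BUB1, a mitotic checkpoint kinase, went against the list with SGC-CBP30, from 121 and 118 RPKM to 72.5 and 75.1 RPKM (-0.69, adjusted p = 2.42e-06). The part that cell cycle position has in the change of CENPA was not tested.

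**Figure D4:**
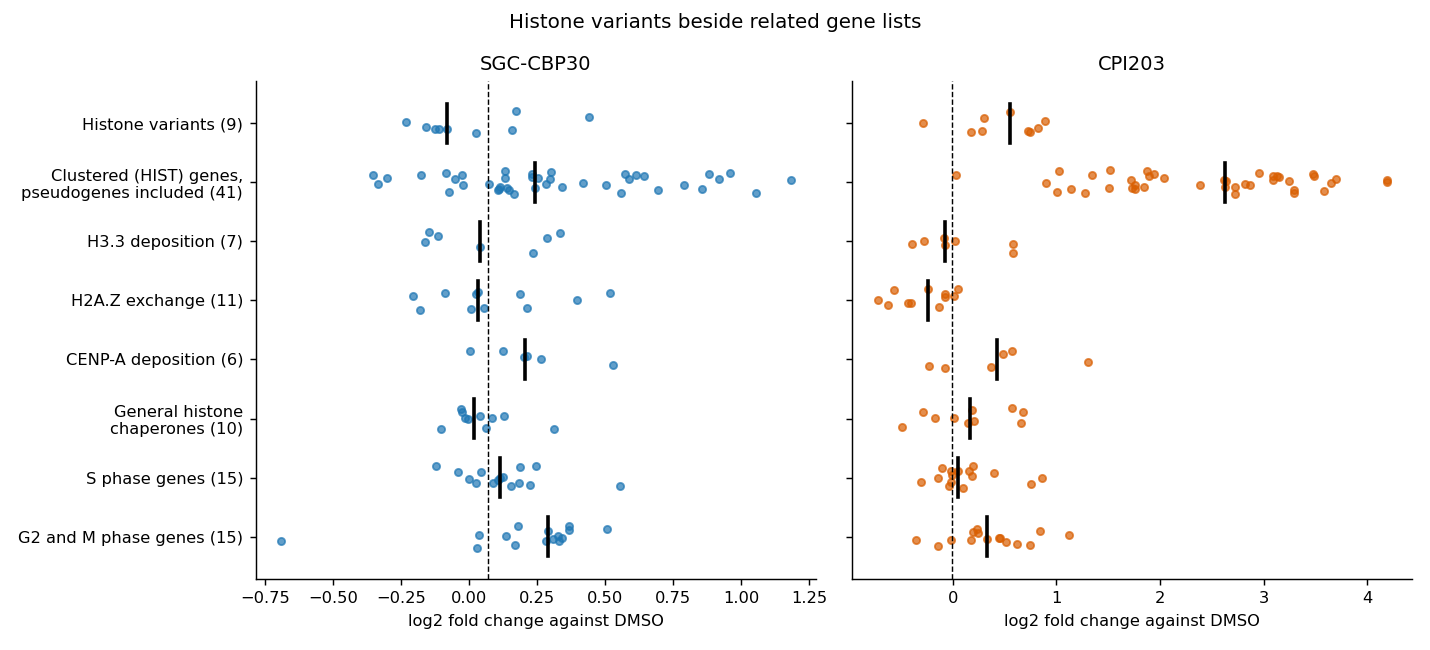
Log2 fold change of each tested gene (points) in the histone variants and related lists, with SGC-CBP30 (left) and CPI203 (right) on separate horizontal axes; black bars are list medians, dashed lines the median of all 14732 genes (0.07 and -0.01), and the number of genes is given after each name. With CPI203 the clustered genes lie far to the right of the variants (medians 2.63 and 0.55) and the H2A.Z exchange genes to the left (-0.24).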

How the data were processed

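RNA-seq was performed on 8 LP-1 libraries in 4 groups of 2. The labels do not pair compound and DMSO, so the naming series in the titles decided which DMSO libraries go with which compound. The authors deposited 1 RPKM value per gene and library, made by their sequencing provider. The submitters' processing notes name TopHat 1.4.1, Cufflinks and hg19, with no role given. The annotation release and strandedness are not given in the sources used here. A further 24 columns belong to no sample of this series and were not used.

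Values were converted to log2(RPKM + 0.1). Rows lacking a value (27) were dropped, and the 14732 genes that averaged 1 RPKM or more were fitted with limma 3.58.1 in R 4.3.3 (eBayes with intensity trend, 4 group means, with 4 residual degrees of freedom and 5.48 from the prior). Each compound was set against its own DMSO, and the difference between these effects was tested, with Benjamini-Hochberg adjustment over all genes in the fit. A gene rose or fell at an adjusted p under 0.05. Single genes were not given exact permutation tests, since 2 against 2 libraries cannot give a p under 0.333. The fit was tested on simulated data. No count test was run, since RPKM values are not counts.

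All 9 members are given in full, and 1 further histone variant gene is not reported here. For each other list the text takes genes from the 3 highest increases and 3 largest decreases past the threshold in each comparison. Exceptions are SRCAP, EP400, further H2A.Z exchange and H3.3 deposition genes, and some clustered histone genes. Near-copies are named from a mean of 1 RPKM. The members and lists were chosen with earlier results of these data known. Depth was estimated from the steps of low RPKM values of 2874 single-exon genes of at least 800 bases, of which 55.1% to 69.9% were whole reads in a library, so the depth is approximate. Replicates differed by an SD of 0.0909 to 0.115 in log2 among genes of at least 10 RPKM. Tables and figures were made in Python 3.11.15 (matplotlib 3.10.9, numpy 2.4.6, pandas 2.3.3).

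Each of these was varied alone: the pseudocount (1), the filter (5 RPKM or none), the scaling (median or quantile), the controls (all 4 DMSO libraries), a replicate block, 1 fit per experiment, the intensity trend (none) and the libraries (leaving out each). Adding near-copies to their gene, crossing the replicate numbers of SGC-CBP30 and the smaller sets of clustered histone genes were chosen after seeing the data. Positions of genes are those of the deposited table (hg19), gene models and transcripts are from GENCODE release 29 and promoters from RefSeq (GRCh38.p14). Positions were not converted between builds.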

Additional observations from a re-analysis of the deposited data

How the results depend on the processing

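The CPI203 results were little affected: 7 to 9 of the 9 members passed under every alternative, and the lost calls with all 4 DMSO libraries as controls were H2AFJ (0.19, adjusted p = 0.0743) and H2AFZ (0.09, adjusted p = 0.274). The SGC-CBP30 count of 6 members was 2 with no filter, 2 with no intensity trend, 2 with all 4 DMSO libraries, 3 with quantile normalization and 2 to 6 with 1 library left out. Over all genes, 1070 calls at 1.5-fold with SGC-CBP30 became 667 with a pseudocount of 1, 505 with a filter of 5 RPKM and 516 with all 4 DMSO libraries, and 4095 with CPI203 became 2590 with that filter. With SGC-CBP30 the sign of H3F3A turned to -0.05 with median scaling, -0.01 with quantile normalization, -0.10 with all 4 DMSO libraries, -0.09 with near-copies added, and lay between -0.04 and 0.08 with 1 library left out, negative without DMSO replicate 1 (-0.04) and without SGC-CBP30 replicate 1 (-0.01). That of H3F3B turned to 0.00 with quantile normalization and 0.13 with all 4 DMSO libraries, while with median scaling it was -0.16 and passed (adjusted p = 0.00442). The causes were not tested.

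The study describes its DMSO controls as paired. Same-numbered samples did not deviate together (correlation of deviations -0.17 and -0.04). With the replicate number as a block 3 members passed with SGC-CBP30, 9 with CPI203 and 8 in the difference, and 1057 and 4120 genes were called at 1.5-fold. With crossed numbers in the SGC-CBP30 experiment these were 6, 9 and 9 members and 1076 and 4113 genes.

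With 2 libraries per group the spread rests on 4 residual degrees of freedom pooled over all groups, and an omitted library leaves a lone sample that is assumed to vary like the others. Small changes with SGC-CBP30 depended on scaling, since H2AFV lost its call with median scaling and H1FX, H2AFY and H2AFZ with quantile normalization.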
